A study of Mus musculus with 20 samples.

Results

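Blood vessel growth in bone depends on signals between endothelial cells and the bone-forming and marrow cells around them. Vascular endothelial growth factor A, encoded by Vegfa, is made by osteoblast-lineage and other cells and acts on endothelial cells through the receptors encoded by Kdr and Flt1. The angiopoietins act on the receptor encoded by Tek, and class 3 semaphorins guide vessels through plexins. The 10 genes described here were these ligands and receptors (Vegfa, Kdr, Flt1, Angpt1, Angpt2 and Tek), the endothelial surface and junction genes Pecam1, Cdh5 and Emcn, and the vessel-guidance ligand gene Sema3e. They were selected by name, 10 of the 54446 genes in the table, and all 10 passed the filter on low counts in every comparison. Sema3e entered the list because of its lower level after loading in vehicle-treated mice, so that difference, and those that use the same libraries, are given as descriptions without a test.

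RNA was sequenced from pulverized tibiae of 3-month-old male C57BL/6J mice that received dexamethasone (DEX, a synthetic glucocorticoid) at 1 mg/kg or water (vehicle), injected under the skin for 5 days. Axial compression of -13 N, 40 cycles a session, was applied to the left tibia, and the right one was left unloaded. The 4 groups were unloaded vehicle, loaded vehicle, unloaded DEX and loaded DEX, with 5 libraries each. The labels place loading on days 1 and 3, while a legend of the study has the last session on day 5. The labels name the tissue only as tibia, the study elsewhere calls its bone samples cortical bone with periosteum, and no source used here says whether marrow was removed. Genes of neutrophils, B cells and skeletal muscle were present in all groups, so the libraries held more than bone cells. A lower level can come from fewer cells of a type or from less RNA per cell, which cannot be told apart here.

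Library totals ran from 4641437 to 13032018 counts. Levels are given in CPM, that is, counts relative to a library's effective size after trimmed-mean (TMM) scaling, on the usual CPM scale. The study removed a library called DEX-4 without saying from which tibia. The unloaded one was left out of the fits here, which is an assumption, and its values are given for completeness. In each vehicle group 1 library has no number that matches a label and is called the unnumbered one. Reads on 1731 olfactory and vomeronasal receptor genes, which bone is not known to use, served as a measure of background. They made up 381 to 1323 CPM in unloaded vehicle, 256 to 904 in loaded vehicle, 778 to 2832 in unloaded DEX and 1067 to 6294 in loaded DEX libraries. The loaded groups thus did not overlap in background reads, and the unloaded groups did. Over all genes tested, edgeR's quasi-likelihood test with Benjamini-Hochberg adjustment at 0.05 called 0% for loading in vehicle, 0% for loading in DEX and 0% for the interaction of treatment and loading, against 21.3% (4206 genes) for DEX in loaded tibiae and 6.84% (1351 genes) for DEX in unloaded tibiae. Leaving out 1 library at a time gave 2696 to 5822 genes in loaded tibiae, the fewest without the unnumbered vehicle library. In unloaded tibiae it gave 129 genes without DEX replicate 3, 530 and 830 without vehicle replicates 5 and 4, 828 without DEX replicate 2, and 1026 to 1867 without any of the others. Without unloaded DEX replicate 5 the counts rose to 39 for loading in DEX and 54 for the interaction. Leaving out any other library gave 0 for loading in DEX, 0 to 4 for loading in vehicle and 0 to 6 for the interaction. At an unadjusted p under 0.05 the counts were 1773, 958 and 2859 genes in the first 3, and DESeq2 called 143, 0 and 50.

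Endothelial RNA was followed by 18 genes listed as pan-endothelial, Pecam1, Cdh5 and Emcn included, none of which was at 0 in all libraries. The name is that of the list, as Emcn is a gene of venous and sinusoidal endothelium. Their summed level was 552 to 825 CPM in unloaded vehicle, 673 to 1075 in loaded vehicle, 611 to 761 in unloaded DEX and 423 to 855 in loaded DEX. The ranges overlapped throughout. Levels of different genes are compared here as CPM per kilobase of exon. In unloaded vehicle tibiae the order was Cdh5 with 26.7 ± 4.79 (SD, n = 5), Vegfa with 23.2 ± 0.445, Pecam1 with 17.7 ± 2.10, Kdr with 8.95 ± 1.53, Tek with 6.73 ± 1.38, Angpt2 with 5.46 ± 0.787, Flt1 with 4.87 ± 0.719, Angpt1 with 4.41 ± 1.07, Emcn with 3.04 ± 0.320 and Sema3e with 1.24 ± 0.138 CPM per kilobase. The intervals of mean ± SD overlapped for Cdh5 and Vegfa and for each pair of neighbours from Kdr down to Emcn, and they did not for Vegfa and Pecam1, Pecam1 and Kdr, and Emcn and Sema3e.

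**Figure D1:**
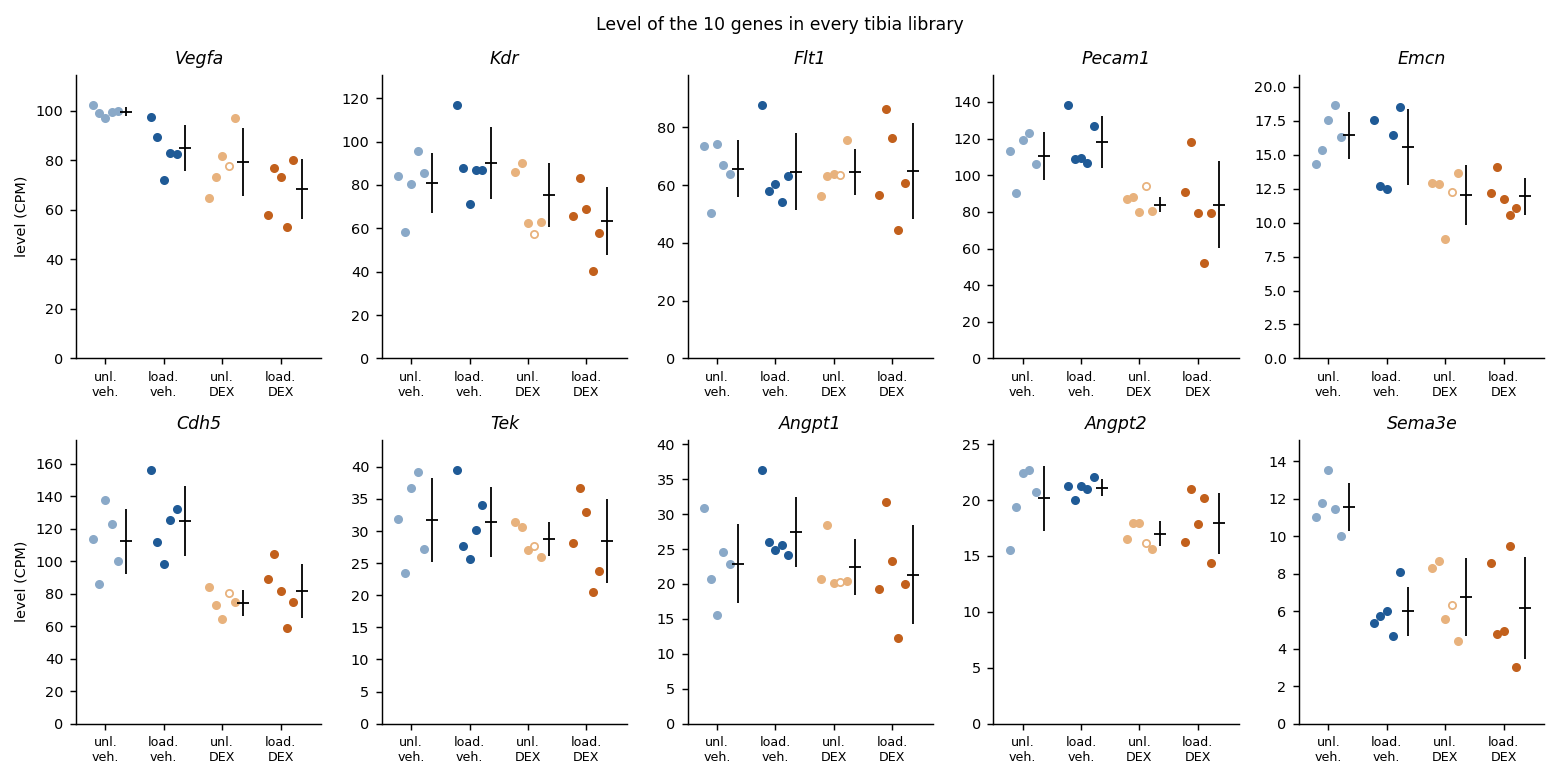
Level of each gene in CPM (vertical axis, from 0) in every tibia library by group (horizontal axis: unloaded vehicle, loaded vehicle, unloaded DEX, loaded DEX). Points are libraries, the open point is unloaded DEX replicate 4, which was left out of the fits, and the bar is the mean ± SD of the others. Sema3e was highest in unloaded vehicle tibiae, from 10.0 to 13.5 CPM, and Cdh5 was lower in both DEX groups than in the vehicle groups, with some overlap among loaded tibiae.

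The promoter windows are those of RefSeq on GRCm38.p6, which hold 250 bases before and 50 after a gene's start. The table has 32851 windows and holds 7 windows of 6 members, 2 of them of Vegfa. The windows of Sema3e, Emcn and Tek are printed because they cover the gene listed for loading, a gene whose unloaded groups did not overlap by treatment and a gene with close levels in all 4 groups. Sema3e lies on the plus strand (chr5:14025026-14025325), as do Emcn (chr3:137340828-137341127) and Tek (chr4:94739039-94739338). Capitals mark the letters AGAACA (a glucocorticoid receptor half-site), ACGTG (the core bound by hypoxia-inducible factors) and CAGGAAG (a core bound by ETS factors), on either strand.
Sema3e: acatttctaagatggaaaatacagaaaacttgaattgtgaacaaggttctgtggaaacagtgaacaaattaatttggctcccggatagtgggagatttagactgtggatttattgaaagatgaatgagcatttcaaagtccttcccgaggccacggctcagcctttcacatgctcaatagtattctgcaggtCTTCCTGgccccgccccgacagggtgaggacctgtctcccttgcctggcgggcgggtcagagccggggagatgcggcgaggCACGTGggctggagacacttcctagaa
Emcn: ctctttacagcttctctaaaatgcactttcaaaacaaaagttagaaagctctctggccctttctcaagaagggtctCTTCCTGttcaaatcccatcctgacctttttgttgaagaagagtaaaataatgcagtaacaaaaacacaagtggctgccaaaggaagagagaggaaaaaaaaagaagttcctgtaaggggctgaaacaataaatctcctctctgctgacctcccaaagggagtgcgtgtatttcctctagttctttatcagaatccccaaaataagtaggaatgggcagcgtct
Tek: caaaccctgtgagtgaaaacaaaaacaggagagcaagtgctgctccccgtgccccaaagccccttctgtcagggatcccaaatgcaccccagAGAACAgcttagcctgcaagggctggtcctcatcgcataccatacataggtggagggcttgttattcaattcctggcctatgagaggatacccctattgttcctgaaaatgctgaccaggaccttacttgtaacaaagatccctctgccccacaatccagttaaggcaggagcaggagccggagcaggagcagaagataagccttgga
The half-site AGAACA was in 1 of the 7 member windows, that of Tek, and in 19% of all windows. ACGTG occurred in Sema3e, on both strands of a single CACGTG, and in 1 of the Vegfa windows, against 19.6% of all windows. CAGGAAG was in the Sema3e and Emcn windows and in 13.3% of all. The full receptor site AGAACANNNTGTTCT was in none of the 7 windows and in 0.00913% of all. These are matches of letters, and they say nothing of binding. The windows also differed in composition, with 2 CG pairs in that of Emcn, 3 in Tek, 11 in Sema3e, 19 in Kdr and 29 in Flt1.

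Sema3e encodes semaphorin 3E, a ligand of plexin D1 that guides vessels away from its source. It lies at chr5:14025276-14256689 on the plus strand of GRCm38 (ENSMUSG00000063531). In unloaded vehicle tibiae its level was 11.01, 11.8, 13.5, 11.5 and 10.0 CPM. In loaded vehicle tibiae it was 5.38, 5.76, 6.01, 4.66 and 8.11 CPM, so every loaded library was below every unloaded one. This is the difference for which the gene was listed, and it was -0.98 on the log2 scale (SE 0.16), a ratio of 0.508, with means of 5.98 ± 1.29 and 11.6 ± 1.28 CPM (SD, n = 5 and 5). Over all genes tested, 1.33% had groups that did not overlap in this comparison.

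In DEX-treated mice both groups lay below the unloaded vehicle tibiae. Unloaded DEX tibiae had 8.32, 8.67, 5.56 and 4.40 CPM, and the library left out had 6.33. Loaded DEX tibiae had 8.59, 4.801, 4.92, 9.45 and 3.03 CPM. The range of unloaded DEX tibiae lay within that of loaded DEX tibiae, whose libraries at 3.03 and 9.45 CPM lay beyond it. Loading in DEX is the comparison that shares no library with the one used to pick Sema3e, and there the difference was -0.18 on the log2 scale (SE 0.32, edgeR adjusted p = 0.818). Its SE exceeds the estimate, and without loaded DEX replicate 5 the value was 0.0041 on the log2 scale (SE 0.30). With the replicate number as a block it was -0.37 (SE 0.21, edgeR adjusted p = 0.634), the lowest p of any setting run, and with background reads as a covariate -0.52 (SE 0.27, edgeR adjusted p = 1.00). The 2 loaded DEX libraries at 8.59 and 9.45 CPM, replicates 1 and 4, also had the most background reads of that group, at 2993 and 6294 CPM. In the other groups the highest Sema3e level was not in the library with the most background: it was 8.67 CPM in unloaded DEX replicate 2 with 954 CPM of background, 13.5 in unloaded vehicle replicate 4 with 444, and 8.11 in the unnumbered loaded vehicle library with 256. In unloaded DEX, replicate 1 with the most background, 2832 CPM, had 8.32 CPM of Sema3e. Replicate 5 with the least background, 778 CPM, had the lowest level, 4.40. Whether background reads affected the Sema3e level was not tested.

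Between treatments, Sema3e was lower in unloaded DEX than in unloaded vehicle tibiae by a log2 value of -0.77 (SE 0.20) with no overlap. Of all genes tested, 10.8% did not overlap in that comparison. Sema3e differed by 0.07 (SE 0.30) in loaded tibiae, where the ranges overlapped and the value was -0.15 (SE 0.27) without loaded DEX replicate 4. The loading difference in DEX minus that in vehicle was 0.79 on the log2 scale (SE 0.36). All 3 values use libraries of the comparison that listed the gene and are therefore not tested.

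**Figure D2:**
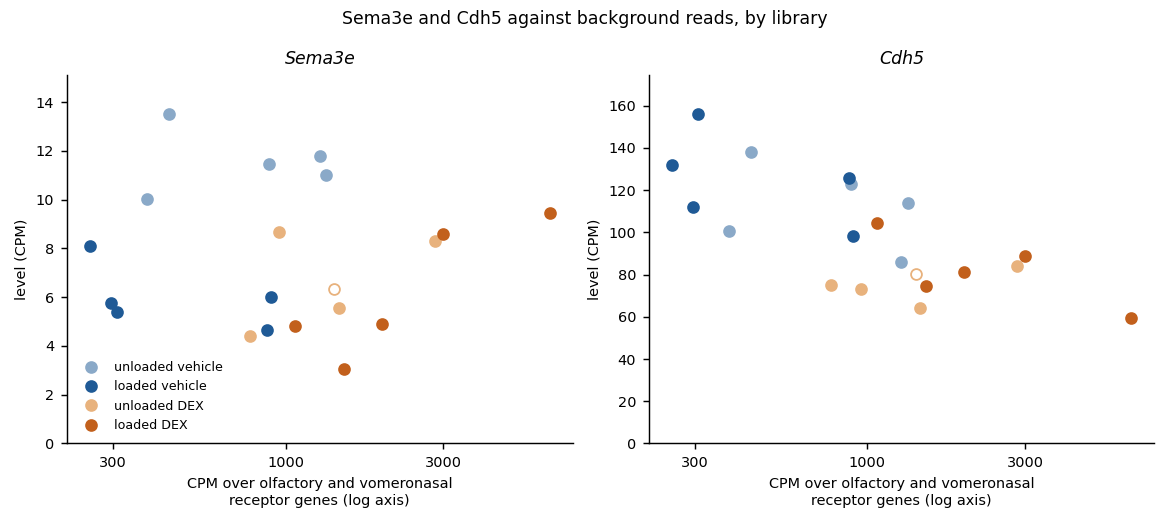
Level of Sema3e (left) and Cdh5 (right) in CPM on the vertical axis, from 0, against reads on olfactory and vomeronasal receptor genes in CPM on a log axis, 1 point per library, coloured by group, with the open point for unloaded DEX replicate 4. In loaded DEX the highest Sema3e levels, 8.59 and 9.45 CPM, were in the libraries with 2993 and 6294 CPM of background, and Cdh5 was lowest, 59.2 CPM, in the library with 6294.

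Cdh5 encodes VE-cadherin, the adhesion molecule of endothelial junctions (chr8:104101625-104144511, plus strand, ENSMUSG00000031871). In unloaded vehicle tibiae its level was 114, 85.8, 138, 123 and 100.5 CPM. In unloaded DEX tibiae it was 84.0, 73.1, 64.4 and 74.9 CPM, with 80.3 in the library left out, so all DEX libraries lay below all vehicle ones. The level fell by 0.58 on the log2 scale (SE 0.14, edgeR adjusted p = 0.0342). In loaded tibiae it was 156, 112, 98.4, 126 and 132 CPM in vehicle and 89.0, 104, 81.4, 59.2 and 74.65 CPM in DEX, ranges that overlapped at a single DEX library. It fell by 0.57 there (SE 0.16, edgeR adjusted p = 0.0285).

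By edgeR on the groups compared, Cdh5 was the only one of the 9 genes other than Sema3e called in loaded tibiae, where 8.35% of all genes were called lower, and in unloaded tibiae, where 3.99% were. DESeq2 also called Kdr in loaded and Pecam1 in unloaded tibiae, and a model of all 4 groups also called Kdr, Pecam1 and Emcn in loaded tibiae. These settings called more genes of all kinds. DESeq2 called 5651 of 19773 in loaded and 2374 of 19727 in unloaded tibiae, and the model of all 4 groups 8446 of 23653 in loaded tibiae. With the replicate number as a block, which uses fewer libraries, Cdh5 was at -0.59 in loaded and -0.46 in unloaded tibiae and neither call held (edgeR adjusted p = 0.0874 and 0.221). A mouse received DEX or vehicle, so between treatments this block joins libraries of different mice and matches no pairing. The same libraries without the block gave -0.59 and -0.47 (edgeR adjusted p = 0.105 and 0.162). The Cdh5 call in loaded tibiae was lost when background reads entered as a covariate (log2 fold change -0.17, SE 0.23, edgeR adjusted p = 0.836), but there these reads separate the groups and cannot be told apart from the treatment. In unloaded tibiae the value with the covariate was -0.55 (SE 0.16, edgeR adjusted p = 0.0429). Leaving out loaded DEX replicate 3 or loaded vehicle replicate 1 or the unnumbered one gave edgeR adjusted p of 0.0513, 0.0620 and 0.0562 for DEX in loaded tibiae. Leaving out unloaded DEX replicate 2, 3 or 5 or vehicle replicate 1, 4 or 5 gave 0.0848, 0.144, 0.0523, 0.0624, 0.0634 and 0.0783 for DEX in unloaded tibiae.

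Pecam1 encodes CD31, a surface protein of all endothelial cells that is also on platelets and some leukocytes (chr11:106654217-106750628, minus strand, ENSMUSG00000020717). Its level in unloaded vehicle tibiae was 114, 90.0, 119, 123 and 106 CPM, and in unloaded DEX tibiae 87.2, 88.1, 80.2 and 80.5, with 93.9 in the library left out. The 4 fitted DEX libraries were all below the vehicle ones, while the library left out was above the lowest vehicle value. The difference was -0.38 on the log2 scale (SE 0.12) and did not pass the test (edgeR adjusted p = 0.0719). DESeq2 called it (adjusted p = 0.0167), as did edgeR on all 20 libraries (adjusted p = 0.0354) and without unloaded vehicle replicate 2 (adjusted p = 0.0363). No other alternative did, among them the replicate block (-0.34, edgeR adjusted p = 0.389) and the fit without unloaded DEX replicate 3 (-0.36, edgeR adjusted p = 0.221). In loaded tibiae the value was -0.45 (SE 0.18, edgeR adjusted p = 0.0843), and the DEX libraries ran from 52.1 to 118 CPM. It was called there in the model of all 4 groups (-0.53, edgeR adjusted p = 0.0187) and without loaded DEX replicate 2 (-0.63, edgeR adjusted p = 0.0183). No other alternative called it in loaded tibiae. It was -0.33 without loaded DEX replicate 4 (edgeR adjusted p = 0.115) and -0.49 with the replicate block (edgeR adjusted p = 0.181). With background reads as a covariate it was 0.056 (SE 0.23, edgeR adjusted p = 0.953).

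Emcn encodes endomucin, a sialomucin of venous and sinusoidal endothelium that marks the vessel type of the growing metaphysis together with CD31 (chr3:137341067-137432185, plus strand, ENSMUSG00000054690). It was 14.3, 15.4, 17.6, 18.7 and 16.3 CPM in unloaded vehicle and 12.9, 12.8, 8.77 and 13.7 in unloaded DEX tibiae, with 12.2 in the library left out. The groups did not overlap, with a log2 difference of -0.43 (SE 0.16, edgeR adjusted p = 0.126). In loaded tibiae the levels were 12.5 to 18.5 CPM in vehicle and 10.6 to 14.1 in DEX, a difference of -0.34 (SE 0.15, edgeR adjusted p = 0.125). Neither passed the test.

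Vegfa, the main ligand (chr17:46016993-46032369, minus strand, ENSMUSG00000023951), was the steadiest member in unloaded vehicle tibiae, at 102, 99.0, 97.1, 99.7 and 100 CPM. It was 97.4, 89.5, 72.1, 83.0 and 82.5 CPM after loading in vehicle, 64.7, 73.3, 81.9 and 96.9 in unloaded DEX tibiae (77.6 in the library left out) and 58.0, 77.0, 73.4, 52.9 and 80.3 in loaded DEX tibiae. Loading in vehicle gave -0.26 (SE 0.09, edgeR adjusted p = 0.419), DEX in unloaded tibiae -0.31 (SE 0.14, edgeR adjusted p = 0.199) and DEX in loaded tibiae -0.27 (SE 0.14, edgeR adjusted p = 0.175). None passed the test, although unloaded DEX levels were all below the lowest unloaded vehicle level, 97.1 CPM.

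Kdr, the signalling receptor VEGFR2 (chr5:75932827-75978458, minus strand, ENSMUSG00000062960), was 58.2 to 95.5 CPM in unloaded vehicle, 71.2 to 117 in loaded vehicle, 62.6 to 90.2 in unloaded DEX and 40.5 to 83.4 in loaded DEX tibiae. The difference by DEX was -0.47 (SE 0.18, edgeR adjusted p = 0.0769) in loaded and -0.09 (SE 0.16, edgeR adjusted p = 0.765) in unloaded tibiae. Background reads as a covariate turned the loaded Kdr value to 0.052 (SE 0.24, edgeR adjusted p = 0.958). The loading difference was 0.13 in vehicle and -0.27 in DEX, and the interaction was -0.41 (SE 0.26, edgeR adjusted p = 0.456), so that the response to loading was not shown to differ. Flt1, the decoy-like receptor VEGFR1 (chr5:147561604-147726011, minus strand, ENSMUSG00000029648), had group means of 64.7 to 65.8 CPM in all 4 groups and a DEX difference of 0.05 in loaded (SE 0.18) and 0.00 in unloaded tibiae. With background reads as a covariate the loaded value was 0.57 (SE 0.24, edgeR adjusted p = 0.340).

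Tek, the angiopoietin receptor TIE2 (chr4:94739289-94874976, plus strand, ENSMUSG00000006386), ranged from 20.5 to 39.5 CPM over the libraries fitted, with DEX differences of -0.10 (SE 0.17, edgeR adjusted p = 0.677) in loaded and -0.12 (SE 0.15, edgeR adjusted p = 0.647) in unloaded tibiae. Its agonist ligand Angpt1 (chr15:42424723-42676977, minus strand, ENSMUSG00000022309), whose exons overlap those of an antisense gene with few counts, ranged from 12.3 to 36.3 CPM, with differences of -0.31 (SE 0.20) and -0.01 (SE 0.19). Angpt2, a context-dependent antagonist (chr8:18690263-18741562, minus strand, ENSMUSG00000031465), was 20.03 to 22.1 CPM in loaded vehicle and 14.4 to 20.97 in loaded DEX tibiae, with differences of -0.19 (SE 0.13) and -0.23 (SE 0.14). No difference of the 3 genes by DEX passed the test.

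**Figure D3:**
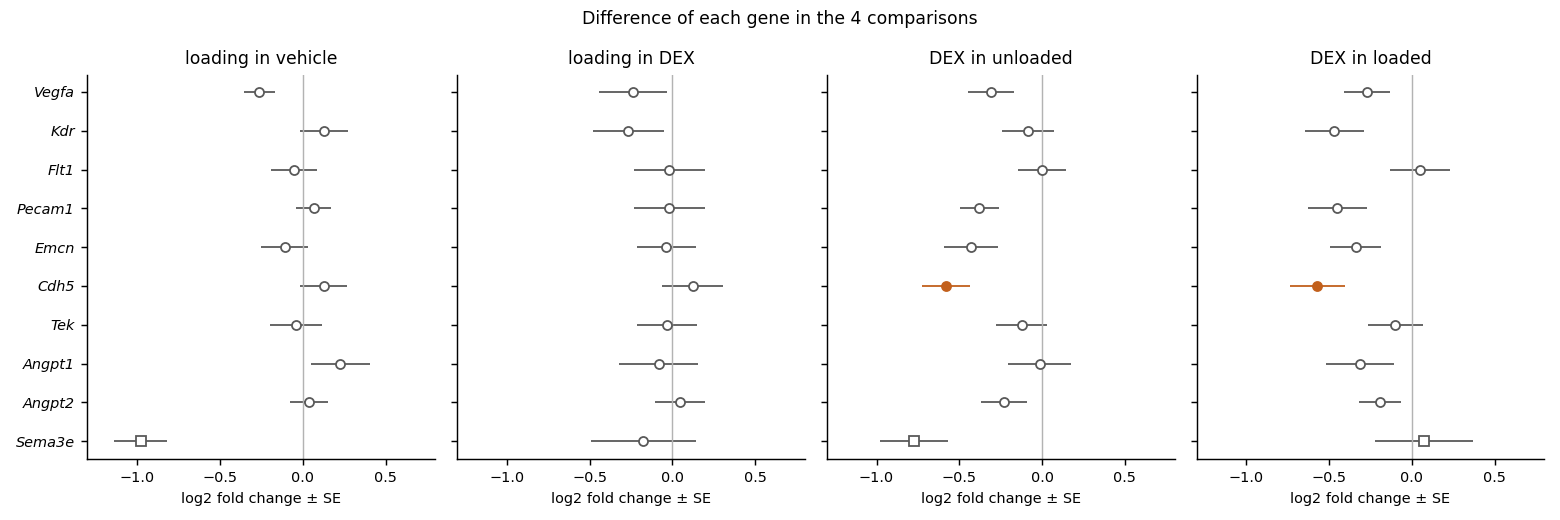
Log2 fold change ± SE of each gene (rows) for loading in vehicle, loading in DEX, DEX in unloaded and DEX in loaded tibiae (panels). Filled circles passed edgeR's adjusted p of 0.05, and squares are Sema3e values given without a test. Cdh5 was called in both DEX comparisons, at -0.58 and -0.57, and no gene was called for loading.

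Over the 9 genes other than Sema3e, the median log2 difference was 0.04 for loading in vehicle, -0.23 for DEX in unloaded tibiae and -0.31 for DEX in loaded tibiae, and over all 10 it was -0.04 for loading in DEX. Over all genes tested it was 0.00, 0.03, 0.00 and 0.02 in the same order. Of the 9, 9 were below 0 for DEX in unloaded tibiae and 8 in loaded tibiae, with Flt1 at 0.00 in the first. With background reads as a covariate 8 and 3 of the 9 were below 0, with medians of -0.15 in unloaded and 0.06 in loaded tibiae. For loading in DEX, 8 of 10 were below 0 without the covariate and 3 with it, where the median was 0.08. In that comparison 7 of 10 members changed sign in some setting. In unloaded tibiae 4 of the 9 had groups that did not overlap (Vegfa, Pecam1, Emcn and Cdh5), where 10.8% of all genes did so, and in loaded tibiae 0 of 9, where 16.5% did so. For loading in DEX it was 0 of 10, where 1.25% of all genes did so. edgeR and DESeq2 called 0 of the 9 genes other than Sema3e for loading in vehicle or for the interaction, and 0 of 10 for loading in DEX. At an unadjusted p under 0.05 edgeR gave 1 of these, Vegfa for loading in vehicle, where 9.86% of all genes passed. It gave 0 in the interaction and for loading in DEX, where 12.1% and 4.25% of all genes did.

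The receptor genes were also set against Cdh5 within the same library. The ratio of Tek to Cdh5, per kilobase of exon, was 0.238 to 0.284 in unloaded vehicle and 0.309 to 0.375 in unloaded DEX tibiae, and 0.214 to 0.233 in loaded vehicle and 0.283 to 0.362 in loaded DEX tibiae. That of Flt1 to Cdh5 was 0.168 to 0.201 and 0.209 to 0.314 in unloaded, and 0.134 to 0.191 and 0.198 to 0.292 in loaded tibiae. Neither ratio overlapped between treatments at the same loading, whereas Kdr to Cdh5 overlapped at both, from 0.272 to 0.397 against 0.392 to 0.574 and from 0.306 to 0.364 against 0.318 to 0.393. The denominator was picked after the values were seen and is the member called lower by DEX. A gene with little DEX difference then has a higher ratio to Cdh5 by construction. The ratios therefore restate the Cdh5 difference and carry no test, and no share over all genes was computed for them.

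**Figure D4:**
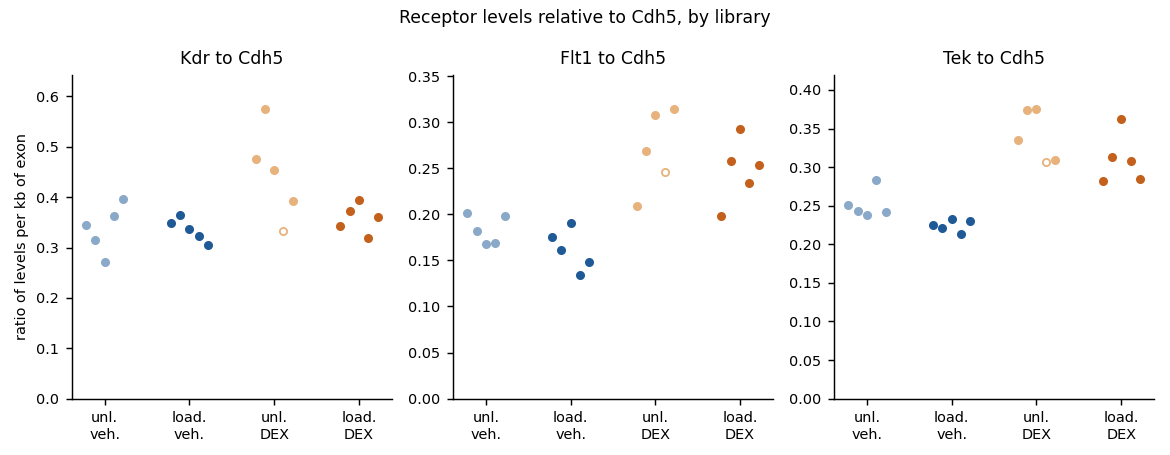
Level of Kdr, Flt1 and Tek relative to Cdh5, each per kilobase of exon, in every library (vertical axis from 0, groups on the horizontal axis, open point for unloaded DEX replicate 4). The Tek ratio was 0.309 to 0.375 in the 4 fitted unloaded DEX libraries, against 0.238 to 0.284 in unloaded vehicle.

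Other genes of these pathways were taken from 11 vascular lists of 92 genes, the members included. Sema3e is left out of the counts that follow, which leaves 91. For DEX in loaded tibiae 16 were called lower and 2 higher, a share called lower of 17.6% against 8.35% of all genes and called higher of 2.20% against 12.9%. In either direction 19.8% were called, against 21.3% of all genes. The shares of all genes depend on the filter. With at least 10 counts in every library, 1148 of 15420 genes were called higher and 1055 lower in loaded tibiae, against 2554 and 1652 of 19780 here. In unloaded tibiae 9 were called lower and 2 higher, a share called lower of 9.89% against 3.99% of all genes, called higher of 2.20% against 2.86%, and in either direction of 12.1% against 6.84%. For loading 0 were called. Among VEGF receptors and co-receptors (5 genes, 1 called in loaded tibiae), the co-receptor Nrp2 fell by 1.07 in loaded tibiae (SE 0.23, edgeR adjusted p = 0.0099), from 564 to 262 CPM, and the median was -0.35. None of the 5 VEGF ligands was called in either DEX comparison, nor were the 5 sinusoidal genes. Of 6 angiopoietin and Tie genes, Angpt4, another ligand of the receptor, rose by 1.03 in unloaded tibiae (SE 0.24, edgeR adjusted p = 0.0288), from 9.58 to 19.2 CPM. In loaded tibiae its value was 0.14 (SE 0.29, edgeR adjusted p = 0.742), with means of 12.2 and 13.1 CPM, and the interaction was -0.90 (SE 0.42, edgeR adjusted p = 0.410), so the DEX difference was not shown to depend on loading.

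Of 8 semaphorin and plexin genes other than Sema3e, 4 were called lower in loaded tibiae and 2, Sema3d and Plxna2, in unloaded tibiae. Sema3d, a close relative of Sema3e, had the lowest values among them, at -1.69 in loaded (SE 0.25, edgeR adjusted p = 0.00156) and -1.91 in unloaded tibiae (SE 0.25, edgeR adjusted p = 0.00428). Its means were 85.8 and 151 CPM in vehicle and 25.7 and 40.0 in DEX. Plxnd1, the receptor of semaphorin 3E, fell by 0.60 in loaded tibiae (SE 0.19, edgeR adjusted p = 0.0417), and in unloaded tibiae its value was -0.10 (SE 0.17, edgeR adjusted p = 0.763). The semaphorin co-receptor subunits Plxna1 and Plxna2 fell in loaded tibiae, with values of -0.99 and -0.60, and Plxna2 fell by 0.59 in unloaded tibiae. Among 18 pan-endothelial genes, 2 were called lower in each comparison, Cdh5 with Mmrn2 (-0.55, edgeR adjusted p = 0.0326), an endothelial matrix protein gene, in loaded, and Cdh5 with S1pr1 (-0.57, edgeR adjusted p = 0.0331), a sphingosine phosphate receptor gene, in unloaded tibiae. The median of the 18 was -0.21 and -0.05. With background reads as a covariate, 0 of the 91 genes were called in loaded tibiae, where 29 of all 19780 genes were. In unloaded tibiae 12 of the 91 were called, where 2659 of all 19738 genes were, a similar share. Leaving out 1 library kept 12 to 17 of the 18 calls in loaded and 1 to 9 of the 11 in unloaded tibiae, the fewest without loaded DEX replicate 3, loaded vehicle replicate 1 or the unnumbered loaded vehicle library (12 each) and without unloaded DEX replicate 3 (1) or unloaded vehicle replicate 5 (3). Of the genes named, Plxnd1 and Mmrn2 stayed called in loaded tibiae in 4 and 5 of these 10 fits, and Angpt4, Plxna2 and S1pr1 in unloaded tibiae in 4, 5 and 3 of 9.

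**Figure D5:**
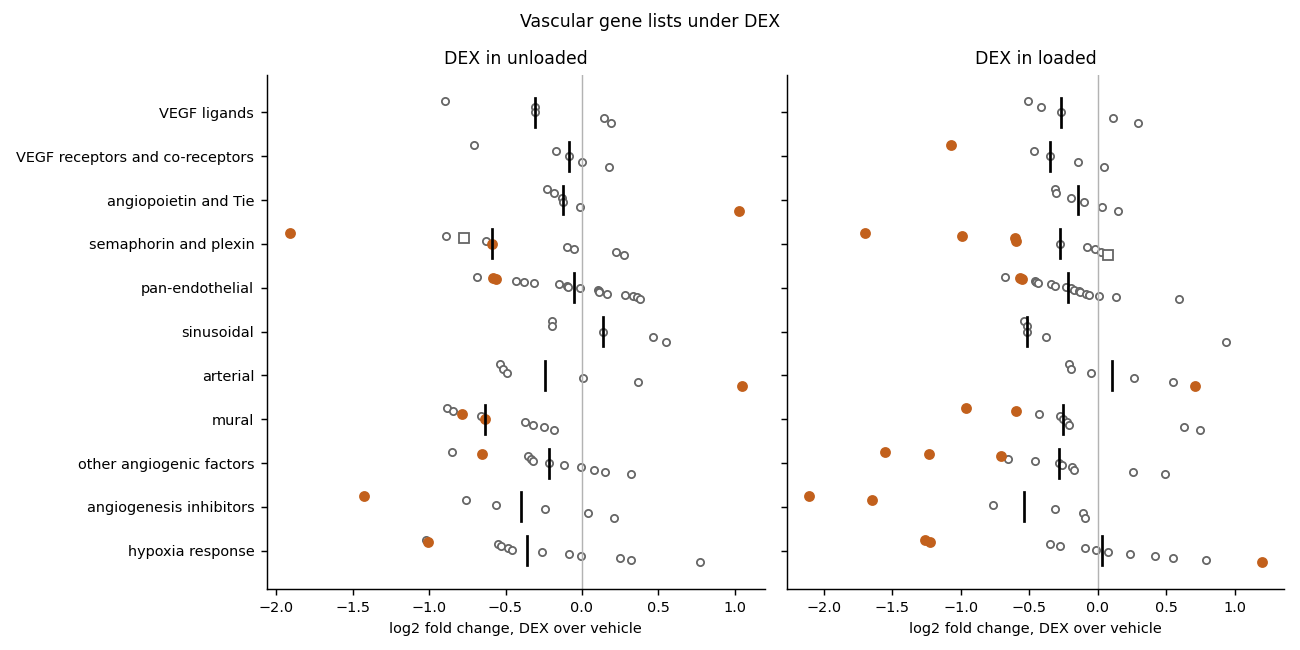
Log2 fold change of DEX over vehicle (horizontal axis) for the genes of 11 vascular lists (rows) in unloaded and loaded tibiae. Filled circles passed edgeR's adjusted p of 0.05, the square is Sema3e, shown without a test, and vertical bars are list medians. Sema3d lies at -1.91 in unloaded and -1.69 in loaded tibiae.

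Marker lists of other cell types also differed by DEX, and their counts stand beside shares over all genes of 8.35% called lower and 12.9% higher in loaded tibiae, and 3.99% and 2.86% in unloaded tibiae. None of the genes of these lists was at 0 in every library of a group. Of 10 osteoblast and osteocyte genes, 9 were called lower in loaded and 6 in unloaded tibiae, and their summed level was 31446 to 100457 CPM in unloaded vehicle, 43931 to 65453 in loaded vehicle, 5071 to 24956 in unloaded DEX and 3817 to 16551 in loaded DEX. Of 8 chondrocyte genes, 7 were called lower in loaded tibiae, with a median of -2.91, and 0 of the 7 tested in unloaded tibiae. Their sums were 941 to 4028 CPM in unloaded vehicle, 1867 to 3378 in loaded vehicle, 359 to 1379 in unloaded DEX and 209 to 971 in loaded DEX. Of 8 neutrophil genes, 7 were called higher in loaded and 6 in unloaded tibiae, and their sums were 4899 to 7120, 4197 to 6215, 8705 to 15862 and 6964 to 16733 CPM in the same order. Of 8 B cell genes, 7 and 4 were called lower. Of 5 adipocyte genes 2 were called higher in each comparison, of 3 lymphatic genes Pdpn was called lower in each, and 0 of 6 megakaryocyte and 0 of 8 erythroid genes were called. The summed level of 8 muscle genes ran from 8395 to 37313 CPM in unloaded and 4060 to 19906 in loaded vehicle, and from 1517 to 17781 in unloaded and 7752 to 22561 in loaded DEX. The part of these shifts in the levels of the 10 genes was not tested.

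By likeness of pattern over the 20 libraries (Spearman's rho of log2 CPM, among genes with a mean of at least 1 CPM), the genes closest to Emcn were Ccny (0.93), Eif4e2 (0.93), Mapre3 (0.91), Nedd4 (0.91) and 4931406P16Rik (0.91). Those closest to Sema3e were Colgalt2 (0.85), Creb3l3 (0.82), A930033H14Rik (0.81), Pitpnm3 (0.78) and Chic1 (0.78). The libraries share treatment, depth and background, so these values describe the pattern only.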

How the data were processed

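Total RNA of crushed tibiae was sequenced with a stranded, ribosomal-depleting low-input kit (SMARTer Stranded Total RNA-Seq Kit v2). Per the submitters' processing notes the authors used STAR 2.7.10a and RSEM 1.2.28 on GRCm38. They deposited expected counts per gene for 54446 genes, estimates of reads per gene that are not scaled for library size, and these were rounded to whole numbers, as 10.6% to 14% of a library's values were not whole. Positions come from GENCODE M21, which matched 54409 identifiers without their version.

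The model fits used edgeR 4.0.16 under R 4.3.3 (filterByExpr with its count minimum of 10 on the groups compared, TMM, quasi-likelihood F test, two-sided) and Benjamini-Hochberg adjustment over all genes tested, at 0.05. The SE is the absolute log2 fold change over the square root of F. DESeq2 1.42.0 was an alternative, as were other scaling, filters, library sets, a covariate of log2 background CPM and a replicate block. Replicate libraries differed by 8.82 to 112.8 times the variance that counting error gives per gene. The study counts its groups in mice. The labels do not say which unloaded and loaded libraries come from the same mouse, and libraries were fitted as unpaired. Sema3e was not counted among calls in comparisons that use vehicle libraries. The 10 genes, the gene lists, the motifs and the ratios were chosen with earlier results of these data known. The list genes named are up to 4 per vascular list with the lowest p among those called. 9 motifs were searched in the promoter windows of 6 members, and the set of windows used here holds none for the other 4. Other annotated genes overlap 4 members, and 1 of these, Gm17473, shares exons with its member, Angpt1.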

Additional observations from a re-analysis of the deposited data

Results flagged for a closer look

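In groups of 4 or 5 libraries, the gap from the highest or lowest library to its neighbour was set against Dixon's 95% limit. Of 40 groups of member values, 4 passed it, and chance alone flags about 1 group in 20. Loaded vehicle replicate 1 was far above the others in Flt1, at 87.8 CPM, and in Angpt1, at 36.3 CPM. Angpt1 in unloaded DEX replicate 2 was 28.4 CPM, above the other libraries of its group. Emcn in unloaded DEX replicate 3 was 8.77 CPM, below the others.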

How the results depend on the processing

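Of the genes other than Sema3e, none was called for loading in vehicle or for the interaction under any alternative run, nor was any of the 10 for loading in DEX. For DEX in loaded tibiae DESeq2 called 2 (Kdr and Cdh5), and a model of all 4 groups called 4 (Kdr, Pecam1, Emcn and Cdh5), while the background covariate, the replicate block and the libraries of that block unpaired (an alternative chosen after seeing the data) each called 0, and leaving out 1 library in turn called 0 to 3. For DEX in unloaded tibiae the block and its libraries unpaired called 0, leaving out 1 library 0 to 2, and DESeq2 and the fit with all 20 libraries 2 each (Pecam1 and Cdh5). With the block the adjusted p of Cdh5 was 0.0874 in loaded and 0.221 in unloaded tibiae. Between treatments the block joins different mice. Within a treatment, numbers were not taken to mark pairs of unloaded and loaded tibiae. The deviations of same-numbered unloaded and loaded libraries correlated from -0.247 to 0.398, over 0.1 in 5 of 10 pairs, and 2 of 10 unloaded libraries were closest to their own number. Of the 18 and 11 vascular list genes other than Sema3e called for DEX in loaded and unloaded tibiae, 12 and 3 were kept with the block and 9 and 3 in its libraries unpaired. The covariate kept 0 and 8, the filter of at least 10 counts 14 and 10, the model of all groups 18 and 8, and DESeq2 18 and 11. The values that follow changed sign. With the covariate DEX in loaded tibiae became 0.11 for Vegfa, 0.052 for Kdr, 0.056 for Pecam1, 0.34 for Tek, 0.26 for Angpt1, 0.0077 for Plxnd1 and -0.55 for Sema3e. Flt1 there was -0.12 with no filter, -0.077 with the block, -0.0626 unpaired and -0.036 in the model of all groups. Sema3e there was -0.18 with no filter, -0.034 in the model of all groups and -0.15 without loaded DEX 4, and Tek was 0.0036 with at least 10 counts in every library. In unloaded tibiae Kdr was 0.022 with the block and 0.0077 unpaired, and Flt1 was 0.045 with the block, 0.048 unpaired, 0.013 with at least 10 counts and 0.10 with the covariate. Leaving out 1 library gave -0.10 to 0.15 for Flt1 and -0.15 to 0.24 for Sema3e in loaded, -0.12 to 0.075 for Flt1 and -0.15 to 0.11 for Angpt1 in unloaded tibiae, and -0.34 to 0.0041 for Sema3e by loading in DEX. Over all genes, DEX in loaded tibiae called 4206 of 19780. DESeq2 called 5651 of 19773, no filter 9016 of 44681, at least 10 counts 2203 of 15420 and the model of all groups 8446 of 23653. The covariate called 29 of 19780, the block 2326 of 19833 and its libraries unpaired 1120 of 19833. DEX in unloaded tibiae called 1351 of 19738. There DESeq2 called 2374 of 19727, all 20 libraries 2922 of 19271, the covariate 2659 of 19738, the block 520 of 19791 and its libraries unpaired 566 of 19791. Depth limits Sema3e most, with 28 to 129 counts a library.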

Other observations

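Other vascular genes of the lists also differed by DEX, with log2 fold changes of DEX over vehicle. In the mural list of 9 genes, Cspg4, a pericyte proteoglycan gene, fell by 0.96 in loaded tibiae (SE 0.17, edgeR adjusted p = 0.00424). Pdgfrb, a pericyte receptor gene, fell by 0.59 in loaded tibiae (edgeR adjusted p = 0.0360), and Abcc9, a potassium channel subunit gene of pericytes, fell by 0.78 in unloaded tibiae (edgeR adjusted p = 0.0342). In the arterial list of 6, Bmx, a kinase gene of arterial endothelium, rose by 0.71 in loaded and 1.05 in unloaded tibiae, while the list medians were 0.11 and -0.24. The other 5 genes of that list did not pass the test, among them Dll4 at -0.52 and Hey1 at -0.53 in unloaded tibiae, where the groups did not overlap, and Efnb2 at -0.49. Of 6 angiogenesis inhibitor genes, Thbs2 fell by 2.10 (SE 0.32) in loaded and fell by 1.43 (SE 0.29) in unloaded tibiae. Col18a1, whose product gives endostatin, fell by 1.65 (SE 0.30) in loaded tibiae.

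Of 12 hypoxia-response genes, Hif1a fell by 1.26 (SE 0.19) in loaded tibiae. P4ha1, a collagen prolyl hydroxylase subunit gene, fell by 1.23 (SE 0.14) in loaded and fell by 1.01 (SE 0.18) in unloaded tibiae, while Egln3, a HIF prolyl hydroxylase gene, rose by 1.197 (SE 0.27) in loaded tibiae. Among 11 further angiogenic factor genes, Aplnr, the apelin receptor gene, fell by 1.56 (SE 0.31), Angptl4 fell by 1.23 (SE 0.30) and Robo1 fell by 0.71 (SE 0.23) in loaded tibiae. Of these calls in loaded tibiae, fits that left out 1 library kept Pdgfrb in 6, Robo1 in 5 and Bmx in 3 of 10, and the others in 10 of 10, while the background covariate kept none. In unloaded tibiae they kept Abcc9 in 4, Bmx in 5, and Thbs2 and P4ha1 in 8 of 9. Cspg4 and Robo1 were also called in unloaded tibiae, at -0.64 and -0.65, but in 1 and 2 of these 9 fits.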
